A study of Mus musculus with 24 samples.

Results

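Expression of 10 genes of the BMP, myostatin and ID pathway was followed in C2C12 cells, an immortalised mouse myoblast line. The genes were taken by name as members of the pathway, in a choice made with earlier results of these data known: Id1, Id2, Id3, Id4, Smad6, Smad7, Bmp4, Mstn, Inhba and Fst. They are 10 of the 35968 genes summed from the deposited transcripts, and 9 of them were among the 14577 genes with enough reads to test. Mstn was not tested, and Id4 reached the minimum only through the groups in which it was high. Cells that the labels call sub-confluent and undifferentiated were treated for 48 h with siRNAs in 4 groups of 3 libraries: siFem1b/Keap1 (both targeting siRNAs), siKeap1, siFem1b and siCont (a non-targeting siRNA). Keap1 and Fem1b encode substrate receptors of cullin-RING ubiquitin ligases, and each was targeted with 1 siRNA sequence. The study's title names the detection of reductive stress. The 2-by-2 layout asks how depletion of both receptors compares with depletion of either one.

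Bone morphogenetic proteins (BMPs) bind serine/threonine kinase receptors that phosphorylate SMAD1, SMAD5 and SMAD9, whereas activins, myostatin and TGF-beta act mainly through SMAD2 and SMAD3. The ID genes are classic direct targets of BMP signalling. They encode helix-loop-helix proteins without a DNA-binding region, which pair with E proteins and keep them from forming active dimers with MyoD-family factors, and BMP treatment of C2C12 cells is known to block muscle differentiation. Smad6 and Smad7 encode inhibitory SMADs that are induced by the pathway and feed back on it. Myostatin restrains muscle growth, and follistatin (Fst) binds and neutralises activins and myostatin.

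Each library held between 31883615 and 42980730 estimated counts over its 2 sequencing runs. Levels are given in CPM (counts relative to the library total, scaled with edgeR's TMM factors) for comparisons between groups and in TPM (the authors' transcript abundance, corrected for length) for comparisons between genes. The targeted genes matched the labels: Keap1 ranged from 9.2 to 9.57 CPM with siFem1b/Keap1 and from 8.59 to 11.1 CPM with siKeap1, against 56.7 to 63.3 CPM with siFem1b and 60.6 to 63.3 CPM with siCont. Fem1b ranged from 11.6 to 14.2 CPM with siFem1b/Keap1 and from 12.8 to 13.6 CPM with siFem1b, against 97.8 to 106 CPM with siKeap1 and 94.1 to 101 CPM with siCont. All 8 myoblast markers examined were detected, with summed levels of 1100 to 1140, 819 to 844, 1290 to 1370 and 927 to 971 TPM in siFem1b/Keap1, siKeap1, siFem1b and siCont libraries. The labels call the repeats triplicates without naming separate cultures, so a p-value here reflects only how far repeats of a group differ, and that spread may be technical. Adjusted p-values are from edgeR's quasi-likelihood test with Benjamini-Hochberg adjustment over all genes tested in a comparison, and a gene is called when its adjusted p is under 0.05.

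The sense strands of both targeting siRNAs are shown because their seeds were searched for in the pathway transcripts; capitals mark the bases that pair with guide positions 2 to 8. Each sense strand occurs whole in transcripts of its own target gene.
siKeap1: gcgccaauguuGACACGGa
siFem1b: gaagaucagugCAGAAUUa
The most abundant coding transcript of each gene was searched, and for the 10 genes all 22 quantified coding transcripts. Smad7 was the one of the 10 whose 3' UTR held the siKeap1 letters, as did 2.50% of the 13099 genes searched. The siFem1b letters were found in no 3' UTR of the 22 transcripts, against 12.65% of genes. Matches outside the 3' UTR were found for siKeap1 in Bmp4 and Inhba and for siFem1b in Smad7 and in a less abundant Id2 transcript. The letters of the non-targeting siRNA occurred in the 3' UTRs of Id4, Fst and the longer Inhba transcript, and in those of 24.0% of genes. They also occurred outside the 3' UTR of Bmp4. Anywhere in the searched transcript, the siKeap1, siFem1b and non-targeting letters occurred in 11.5%, 24.3% and 34.2% of genes. Whether any of these matches played a part in the values was not tested.

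RefSeq promoter windows (GRCm38.p6, 250 bases before to 50 after the start) matched 7 of the 10 genes: Id2, Id3, Id4, Smad6, Bmp4, Mstn and Inhba. They were searched on both strands for the SMAD1/5 GC element (GGCGCC), the SMAD3/4 element (CAGAC), the E-box that bHLH factors bind (CANNTG) and the antioxidant response element (TGACNNNGC), which is bound by NRF2, the transcription factor that KEAP1 marks for degradation. The bases before the start are shown for Smad6 (higher than siCont in every group with a targeting siRNA) and Bmp4 (with opposite changes under the single siRNAs), with motifs in capitals.
Smad6 (chr9:64022060-64022309, minus strand): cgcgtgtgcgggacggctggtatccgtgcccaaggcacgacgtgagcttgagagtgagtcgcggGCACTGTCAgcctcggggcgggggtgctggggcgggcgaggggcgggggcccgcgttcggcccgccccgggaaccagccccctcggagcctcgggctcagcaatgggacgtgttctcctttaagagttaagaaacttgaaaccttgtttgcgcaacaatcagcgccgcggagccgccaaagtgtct
Bmp4 (chr14:46390670-46390919, minus strand): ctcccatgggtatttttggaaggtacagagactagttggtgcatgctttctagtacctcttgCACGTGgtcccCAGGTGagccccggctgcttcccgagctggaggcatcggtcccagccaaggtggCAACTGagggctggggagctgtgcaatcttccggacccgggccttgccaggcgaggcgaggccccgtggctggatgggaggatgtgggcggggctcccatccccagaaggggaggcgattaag
The Smad6 window held 2 antioxidant response elements, one in the printed bases and one after the start, and an E-box after the start. The Bmp4 window held 3 E-boxes. The Id2 window held a GC element and an E-box before the start and an antioxidant response element after it, and the Id3 window held 2 CAGAC elements. The bases before the start are not shown for these genes because 161 of the 250 bases for Id2 and all 250 for Id3 lie in exons annotated in GENCODE M21. Id4 held 1 GC element, Mstn held 4 E-boxes and 2 CAGAC elements, and Inhba held no match to the 4 motifs. Among 32851 promoter windows of this length, GGCGCC occurred in 11.9%, CAGAC in 49.6%, CANNTG in 72.3% and TGACNNNGC in 12.4%. None of the matches overlapped another, and a match is a description of letters only.

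**Figure D1:**
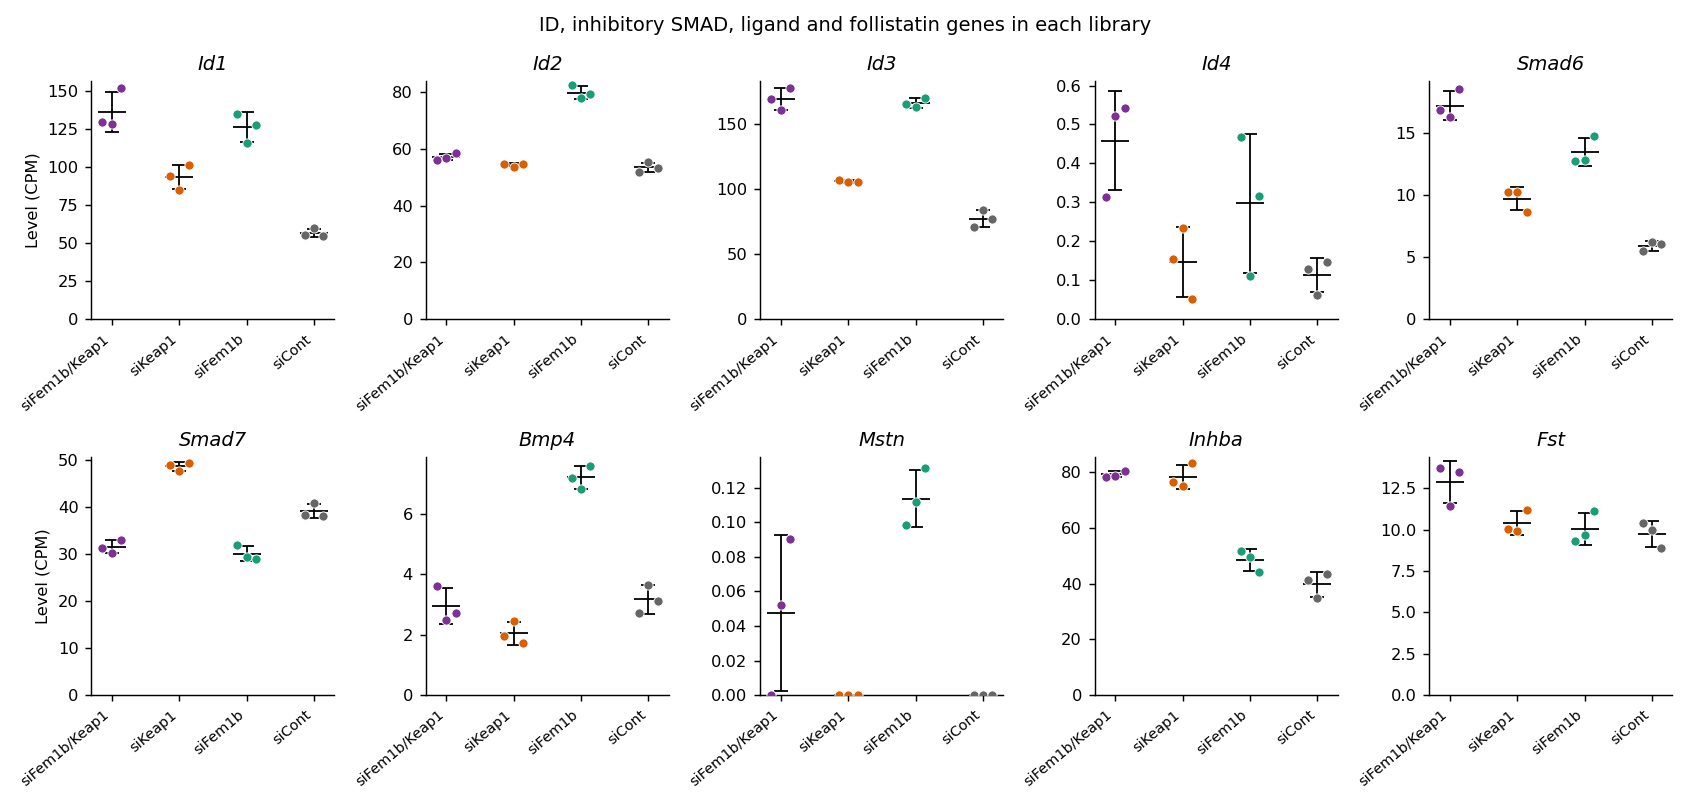
Level in CPM (y axis, from 0) of each of the 10 genes in the 3 libraries of siFem1b/Keap1, siKeap1, siFem1b and siCont (x axis); points are libraries, dashes are means and bars are ± SD. Id1, Id3, Smad6 and Inhba lie above siCont in all libraries of the other groups. Inhba is highest in the siFem1b/Keap1 and siKeap1 libraries, and Bmp4 is highest with siFem1b, at 6.83 to 7.6 CPM.

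Id1 and Id3 were higher than in siCont in all 3 depleted groups, and most so where Fem1b was depleted. Id1 (ENSMUSG00000042745.9, chr2:152736251-152737410, plus strand, GRCm38) stood at 130, 128 and 152 CPM in siFem1b/Keap1 libraries, 94.1, 85.2 and 101 CPM in siKeap1 libraries, 135, 116 and 128 CPM in siFem1b libraries and 55.3, 60 and 55 CPM in siCont libraries. Every depleted library lay above every siCont library, the siKeap1 libraries lay between, and the siFem1b/Keap1 and siFem1b libraries overlapped. Of all tested genes, 35.1%, 22.3% and 31.1% lay wholly above siCont with siFem1b/Keap1, siKeap1 and siFem1b. Against siCont, Id1 rose 2.41-fold with siFem1b/Keap1 (log2 1.27 ± 0.08 SE, edgeR adjusted p = 5.85e-09), 1.65-fold with siKeap1 (log2 0.72 ± 0.08, adjusted p = 7.1e-06) and 2.23-fold with siFem1b (log2 1.15 ± 0.08, adjusted p = 2.41e-08). In bulk RNA, fewer cells of a type and less RNA per cell cannot be told apart.

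Id3 (ENSMUSG00000007872.3, chr4:136143497-136145755, plus strand) is, with Id1, the ID gene most often used as a readout of BMP activity. It stood at 169, 161 and 177 CPM in siFem1b/Keap1 libraries, 107, 105 and 105 CPM in siKeap1 libraries, 165, 162 and 170 CPM in siFem1b libraries and 70.7, 83.8 and 76.9 CPM in siCont libraries. The order matched that of Id1: the siFem1b/Keap1 and siFem1b libraries overlapped at the top, the siKeap1 libraries formed a narrow middle group, and siCont was lowest without overlap. Id3 rose 2.19-fold with siFem1b/Keap1 (log2 1.13 ± 0.05 SE, edgeR adjusted p = 6.06e-13), 1.37-fold with siKeap1 (log2 0.46 ± 0.05, adjusted p = 7.67e-07) and 2.15-fold with siFem1b (log2 1.10 ± 0.05, adjusted p = 1.41e-12). For Id3, siFem1b/Keap1 and siFem1b differed by log2 0.03 (95% interval -0.08 to 0.13, adjusted p = 0.697), and for Id1 by 0.11 (-0.06 to 0.28, adjusted p = 0.271). Both genes were higher with siFem1b than with siKeap1: Id3 1.57-fold (adjusted p = 1.44e-09) and Id1 1.35-fold (adjusted p = 0.000265).

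Id2 (ENSMUSG00000020644.9, chr12:25093799-25097140, minus strand) behaved differently from its paralogs. It stood at 56.1, 56.5 and 58.3 CPM in siFem1b/Keap1 libraries, 54.6, 53.7 and 54.7 CPM in siKeap1 libraries, 82.2, 77.7 and 79 CPM in siFem1b libraries and 51.8, 55.1 and 53.3 CPM in siCont libraries. The siFem1b libraries stood apart above all the others, and the remaining 9 libraries lay within a few CPM of each other. Id2 rose 1.49-fold with siFem1b against siCont (log2 0.58 ± 0.04 SE, edgeR adjusted p = 4.2e-10), and it was 1.40-fold lower with siFem1b/Keap1 than with siFem1b (log2 -0.48 ± 0.04, adjusted p = 1.52e-08). With siFem1b/Keap1 it was 1.07-fold higher than with siCont at an adjusted p of 0.0489, which passed the threshold without siFem1b replicate 2 or siCont replicate 2 but not without any 1 of the other 10 libraries (adjusted p = 0.0549 to 0.198; without siCont replicate 1, log2 0.07). With siKeap1 the log2 difference from siCont was 0.03 (95% interval -0.06 to 0.11, adjusted p = 0.657).

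Id4 (ENSMUSG00000021379.2, chr13:48261228-48266026, plus strand), the remaining family member, was near the detection limit. Its estimated counts were 12, 20 and 18 in siFem1b/Keap1 libraries, 5, 9 and 2 in siKeap1 libraries, 19, 4 and 12 in siFem1b libraries and 5, 2 and 6 in siCont libraries. The siFem1b/Keap1 libraries did not overlap siCont, whereas the siFem1b libraries did. Because Id4 reached the read minimum through its siFem1b/Keap1 and siFem1b libraries, its fitted values are given as a description. Id4 enters none of the counts of called members, apart from the tallies over processing settings in the closing section. Its fitted level was 3.81-fold higher with siFem1b/Keap1 than with siCont (log2 1.93 ± 0.53 SE, edgeR adjusted p = 0.00327). The siFem1b difference from siCont, 2.55-fold at an adjusted p of 0.0446, did not pass the threshold without siFem1b/Keap1 replicate 2, siKeap1 replicate 1, siFem1b replicates 1 or 3, or any 1 siCont library (adjusted p = 0.0546 to 0.26; without siFem1b replicate 1, log2 0.86). It was also 3.04-fold higher with siFem1b/Keap1 than with siKeap1 (adjusted p = 0.00976), a call that ended without siKeap1 replicate 3 (log2 1.19, adjusted p = 0.0597), and its siFem1b level differed from siKeap1 by log2 1.02 (adjusted p = 0.106; 0.0237 without siFem1b replicate 2). Opposite-strand genes overlap Id4, and no source used here states whether the libraries keep strand, so their reads cannot be told apart.

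Per unit length, Id1 and Id3 were the most abundant of the 10 genes. In siCont, Id1 averaged 120 TPM, Id3 112 TPM and Id2 75.4 TPM, and Id4 averaged 0.0444 TPM (n = 3 each). With siFem1b/Keap1, Id1 averaged 307 TPM and Id3 267 TPM, with Id2 at 86.3 TPM. The transcript ENSMUST00000038368.8 carried 95.8% to 97.6% of the Id1 TPM in the 12 libraries, and 1 transcript carried 91.4% to 94.1% of that of Id3. The totals of these genes thus mostly reflected 1 transcript each. The other coding Id1 transcript averaged 11.5, 6.68, 9.13 and 3.69 TPM in siFem1b/Keap1, siKeap1, siFem1b and siCont libraries. The minor Id3 transcripts also averaged more TPM in each depleted group than in siCont.

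The summed level of 8 differentiated muscle markers was highest in the groups in which Id1 and Id3 were highest. It was 203 to 216 TPM in siFem1b/Keap1 libraries, 17.6 to 19.3 TPM in siKeap1 libraries, 246 to 274 TPM in siFem1b libraries and 13.6 to 17.4 TPM in siCont libraries. All 8 markers averaged more TPM than in siCont with siFem1b/Keap1 and with siFem1b. With siKeap1, under which Id1 and Id3 were called higher, 2 of the 8 averaged more and 6 averaged less. The siKeap1 sum was carried by Acta1, the skeletal actin gene, which averaged 171, 16.1, 85.4 and 8.24 TPM in siFem1b/Keap1, siKeap1, siFem1b and siCont libraries. Without Acta1 the summed means were 36.9, 2.27, 173 and 7.21 TPM in the same order. Id2 did not follow these markers under siFem1b/Keap1, where it lay 1.07-fold above siCont.

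Markers of other cell types also differed between the groups. Summed fibroblast markers were 97 to 108, 46.7 to 48.1, 121 to 134 and 52 to 55.7 TPM in siFem1b/Keap1, siKeap1, siFem1b and siCont libraries, with 5 of 6 genes tested and Col1a1 leading. Adipocyte markers (4 of 6 tested) summed to 58 to 62.2, 40.9 to 43.7, 40.4 to 43.3 and 29.4 to 34.5 TPM in the same order, led by Pparg, with Adipoq at or near 0. The epithelial sum (4 of 6 tested) was 43.1 to 45, 67.5 to 71.3, 17.1 to 19.4 and 10.6 to 12.9 TPM. Most of it was Krt14, which was highest with siKeap1, and Epcam was near 0. Cdh1, Krt8 and Krt18, also tested, were highest with siFem1b/Keap1. They averaged 1.5, 2.89 and 0.362 TPM there, against 0.0906, 0.485 and 0.0577 TPM with siKeap1. The leukocyte sum (2 of 5 tested) was 8.62 to 10, 5.36 to 6.36, 3.72 to 4.24 and 2.34 to 3.35 TPM, most of it Cd68, with Ptprc near 0 and Adgre1 at 0. The endothelial sum (4 of 4 tested) was 0.876 to 1.02, 1.07 to 1.87, 0.551 to 1.05 and 0.434 to 0.525 TPM. Adipocyte, epithelial, leukocyte and endothelial sums were thus above siCont in all libraries of the other groups, as were Id1, Id3, Smad6 and Inhba. The osteoblast sum (4 of 8 tested) was 35.8 to 36.6, 33.9 to 35.9, 34.3 to 35.3 and 31.6 to 35.6 TPM, most of it Runx2, with Dlx5 and Ibsp at or near 0. Among its low members, Bglap averaged 2.32, 0.303, 0.625 and 0.296 TPM, Dmp1 1.46, 0.356, 1.6 and 0.567 TPM and Alpl 0.577, 0.0929, 0.308 and 0.00548 TPM in siFem1b/Keap1, siKeap1, siFem1b and siCont libraries. Bglap and Alpl were not among the tested genes. Phex, which was tested, averaged 3.8, 3.06, 2.66 and 3.16 TPM in the same order, so lower than siCont with siKeap1 and siFem1b. Sp7, also tested, averaged 0.3, 0.198, 0.306 and 0.146 TPM. The part of these cell states in the results was not tested.

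Both inhibitory SMAD genes rose with siKeap1, and with siFem1b/Keap1 and siFem1b Smad6 rose and Smad7 fell. Smad6 (ENSMUSG00000036867.7, chr9:63953076-64022059, minus strand), which acts mainly on the BMP branch, stood at 16.9, 16.3 and 18.6 CPM in siFem1b/Keap1 libraries, 10.3, 10.3 and 8.66 CPM in siKeap1 libraries, 12.8, 12.9 and 14.8 CPM in siFem1b libraries and 5.5, 6.21 and 6.04 CPM in siCont libraries. None of the groups overlapped another, and the order was siFem1b/Keap1, siFem1b, siKeap1 and siCont. Lack of overlap was common: between any 2 groups, 50.8% to 70.3% of all tested genes did not overlap. Smad6 rose 2.91-fold with siFem1b/Keap1 (log2 1.54 ± 0.09 SE, edgeR adjusted p = 1.65e-11), 1.64-fold with siKeap1 (log2 0.72 ± 0.09, adjusted p = 4.15e-06) and 2.28-fold with siFem1b (log2 1.19 ± 0.09, adjusted p = 1.35e-09). It was also 1.28-fold higher with siFem1b/Keap1 than with siFem1b (log2 0.35 ± 0.08, adjusted p = 0.00151), which was not called for Id1 or Id3.

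Smad7 (ENSMUSG00000025880.11, chr18:75367529-75395935, plus strand), which acts on both the TGF-beta and the BMP branch, stood at 31.4, 30.3 and 33.1 CPM in siFem1b/Keap1 libraries, 49, 47.6 and 49.4 CPM in siKeap1 libraries, 31.9, 29.4 and 29 CPM in siFem1b libraries and 38.4, 40.8 and 38.1 CPM in siCont libraries. The siKeap1 libraries were all above siCont, and all libraries with the Fem1b siRNA were below it. Smad7 fell with siFem1b/Keap1 (log2 -0.31 ± 0.05 SE, edgeR adjusted p = 2.63e-05), rose 1.25-fold with siKeap1 (log2 0.32 ± 0.05, adjusted p = 3.75e-05) and fell with siFem1b (log2 -0.38 ± 0.05, adjusted p = 3.15e-06). The siFem1b/Keap1 and siFem1b levels overlapped and differed by log2 0.07 (95% interval -0.04 to 0.18, adjusted p = 0.316); with an offset for transcript length, the difference was 0.27 (adjusted p = 0.0281). Between siFem1b/Keap1 and siKeap1, Smad7 was lower (log2 -0.62 ± 0.05, adjusted p = 2.77e-09) and Smad6 higher (log2 0.83 ± 0.08, adjusted p = 6.71e-08) with siFem1b/Keap1.

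Among the ligands, Bmp4 showed opposite changes under the single siRNAs. Bmp4 (ENSMUSG00000021835.15, chr14:46383520-46390669, minus strand) stood at 3.63, 2.5 and 2.71 CPM in siFem1b/Keap1 libraries, 1.97, 2.47 and 1.72 CPM in siKeap1 libraries, 7.2, 6.83 and 7.6 CPM in siFem1b libraries and 2.71, 3.66 and 3.13 CPM in siCont libraries. The siFem1b libraries were far above the rest, the siKeap1 libraries were below siCont, and the siFem1b/Keap1 libraries overlapped siCont. Bmp4 rose 2.29-fold with siFem1b (log2 1.19 ± 0.14 SE, edgeR adjusted p = 6.39e-07) and fell with siKeap1 (log2 -0.62 ± 0.16, adjusted p = 0.00511; 0.0922 with an offset for transcript length). With siFem1b/Keap1, the log2 difference from siCont was -0.10 (95% interval -0.42 to 0.23, adjusted p = 0.61). Bmp4 was 2.44-fold lower with siFem1b/Keap1 than with siFem1b (log2 -1.29 ± 0.14, adjusted p = 7.22e-07). Against siKeap1, siFem1b/Keap1 was 1.44-fold higher (log2 0.52 ± 0.17, adjusted p = 0.0101), a call that ended without siFem1b/Keap1 replicate 1 (log2 0.31, adjusted p = 0.124) or siKeap1 replicate 3 (log2 0.40, adjusted p = 0.064), and with a transcript length offset (adjusted p = 0.211). Opposite-strand genes overlap Bmp4.

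The Bmp4 message did not follow the order of Id1, Id3 and Smad6, and was nearer to that of Id2. Under siFem1b/Keap1, Id1, Id3 and Smad6 were called higher than siCont and Bmp4 was not. Under siKeap1, Id1, Id3 and Smad6 were called higher and Bmp4 was called lower. In siFem1b libraries, all 4 genes were called higher. Id2, like Bmp4, was highest with siFem1b and lower with siFem1b/Keap1 than with siFem1b. Over the 3 log2 changes against siCont, the root mean square difference from Bmp4 was 0.525 for Id2, 1.1 for Id1 and 0.942 for Id3. The most abundant coding transcript of Bmp4, ENSMUST00000074077.11, averaged 2.03, 1.35, 5.68 and 2.04 TPM in siFem1b/Keap1, siKeap1, siFem1b and siCont libraries. This was the order of the gene as a whole except that siFem1b/Keap1 and siCont were level. The share of the Bmp4 TPM that this transcript carried ranged from 39.7% to 97.7% over the libraries, with other transcripts, 1 of them also coding, making up the rest.

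Inhba (ENSMUSG00000041324.14, chr13:16011851-16031621, plus strand), which encodes the subunit of activin A, followed the Keap1 siRNA. It stood at 78.5, 78.8 and 80.5 CPM in siFem1b/Keap1 libraries, 76.5, 75 and 83.2 CPM in siKeap1 libraries, 51.8, 49.7 and 44.2 CPM in siFem1b libraries and 41.2, 34.8 and 43.3 CPM in siCont libraries. The groups with the Keap1 siRNA overlapped each other and lay above every other library, and the siFem1b libraries lay just above siCont. Inhba rose 1.99-fold with siFem1b/Keap1 (log2 0.99 ± 0.07 SE, edgeR adjusted p = 3.64e-09), 1.96-fold with siKeap1 (log2 0.97 ± 0.07, adjusted p = 1.94e-08) and 1.22-fold with siFem1b (log2 0.28 ± 0.07, adjusted p = 0.00306). The difference between siFem1b/Keap1 and siKeap1 was log2 0.02 (95% interval -0.13 to 0.17, adjusted p = 0.83). Opposite-strand genes overlap Inhba. Its longer coding transcript (6390 bases) averaged 14.8, 13.2, 9.3 and 6.74 TPM and its shorter one (1529 bases) 21.6, 21.3, 13.3 and 11.2 TPM in siFem1b/Keap1, siKeap1, siFem1b and siCont libraries.

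Mstn (ENSMUSG00000026100.6, chr1:53061640-53068079, plus strand) was at the limit of detection. Estimated counts were 0, 2 and 3 in siFem1b/Keap1 libraries, 0 in each siKeap1 library, 4, 4 and 5 in siFem1b libraries and 0 in each siCont library. The gene was thus seen only in libraries with the Fem1b siRNA, and in each of the 3 siFem1b libraries, the groups in which the differentiated muscle markers were also highest. With siCont set to a floor of 3 counts over the group, the Mstn ratio to siCont was 4.18 with siFem1b and 1.68 with siFem1b/Keap1. These ratios leave out the counting error of the 13 counts with siFem1b and the 5 with siFem1b/Keap1, so they are not lower limits. The siFem1b/Keap1 to siFem1b ratio was 0.401 (95% counting interval 0.112 to 1.2). No test was made, and that interval covers counting error only.

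Fst (ENSMUSG00000021765.9, chr13:114452290-114458951, minus strand), the antagonist of the activin and myostatin branch, changed little. It stood at 13.7, 11.4 and 13.5 CPM in siFem1b/Keap1 libraries, 10, 9.93 and 11.2 CPM in siKeap1 libraries, 9.29, 9.68 and 11.1 CPM in siFem1b libraries and 10.4, 9.97 and 8.87 CPM in siCont libraries. The siFem1b/Keap1 libraries lay above all others, and the other 3 groups overlapped. Fst was 1.32-fold higher with siFem1b/Keap1 than with siCont (log2 0.40 ± 0.09 SE, edgeR adjusted p = 0.000663), 1.28-fold higher than with siFem1b (log2 0.36 ± 0.09, adjusted p = 0.00328) and 1.24-fold higher than with siKeap1 (log2 0.31 ± 0.09, adjusted p = 0.00595). With an offset for transcript length these calls ended (adjusted p = 0.0628, 0.15 and 0.224), and the call against siKeap1 also ended without siFem1b/Keap1 replicate 1 (log2 0.23, adjusted p = 0.0602). Against siCont, the log2 difference was 0.09 (95% interval -0.10 to 0.29, adjusted p = 0.451) with siKeap1 and 0.04 (-0.15 to 0.24, adjusted p = 0.705) with siFem1b. A gene on the other strand overlaps Fst.

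**Figure D2:**
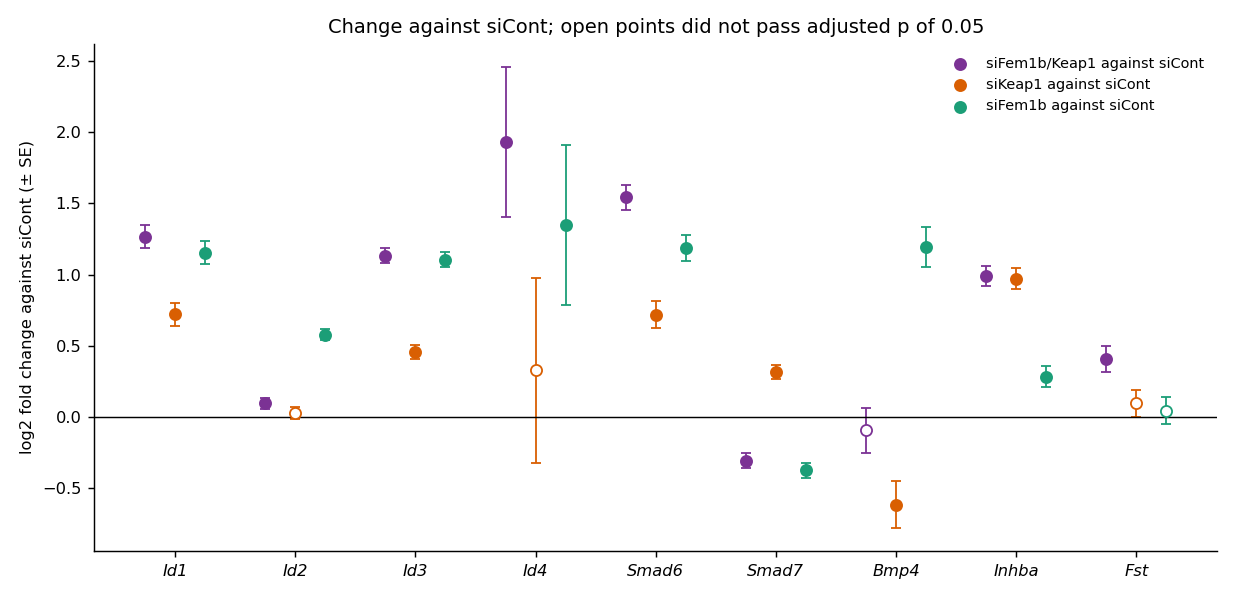
Log2 fold change against siCont (y axis, ± SE) of the 9 tested genes (x axis) with siFem1b/Keap1, siKeap1 and siFem1b, each 3 libraries against 3; filled points passed an adjusted p of 0.05. Id1, Id3, Smad6 and Inhba are above 0 in all 3 comparisons, and Smad7 and Bmp4 have opposite signs with siKeap1 and siFem1b.

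Counted over the 8 tested genes without Id4, 6 were called higher and 1 lower with siFem1b/Keap1 against siCont, in a comparison in which 67.5% of all genes were called, 33.8% higher and 33.7% lower. With siKeap1, 5 were called higher and 1 lower, where 42.2% of all genes were called, 18.4% higher and 23.8% lower. With siFem1b, 6 were called higher and 1 lower, where 62.1% of all genes were called, 30.0% higher and 32.1% lower. The even balance over all genes depended on the scaling: with library totals alone, 6134 genes were called higher and 3746 lower with siFem1b/Keap1, in place of 4934 and 4906, and 5457 higher and 3547 lower with siFem1b, in place of 4373 and 4674. These backgrounds are broad, so a call by itself sets a gene apart from few others. By the stricter rule of a call with at least a 1.5-fold change, 4 of the 8 passed with siFem1b/Keap1 (Id1, Id3, Smad6 and Inhba), against 29.4% of all genes. With siKeap1, 4 passed (Id1, Smad6 and Inhba higher, Bmp4 lower), against 10.1% of all genes, and with siFem1b 4 passed (Id1, Id3, Smad6 and Bmp4), against 21.1%. The median log2 change of the 8 genes was 0.70, 0.39 and 0.84 with siFem1b/Keap1, siKeap1 and siFem1b, beside medians of 0.005, -0.02 and -0.01 (siFem1b/Keap1, siKeap1 and siFem1b) over all genes. Id1, Id3, Smad6 and Inhba were called higher in all 3 comparisons, as were 7.68% of all genes, and Id1 and Smad6 were so by at least 1.5-fold, as were 2.27%. The 3 comparisons share the siCont libraries.

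Between the depleted groups, 6 of the 8 genes were called for siFem1b/Keap1 against siKeap1, where 63.6% of all genes were called. Id1, Id3, Smad6, Bmp4 and Fst were higher and Smad7 was lower. For siFem1b/Keap1 against siFem1b, 5 were called (Smad6, Inhba and Fst higher, Id2 and Bmp4 lower), where 43.1% of all genes were called. For siFem1b against siKeap1, 7 were called, where 63.9% of all genes were called: Id1, Id2, Id3, Smad6 and Bmp4 were higher, and Smad7 and Inhba were lower. Id1, Id2, Id3 and Smad6 thus sat higher in the siFem1b libraries and Inhba in the siKeap1 libraries.

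The double depletion was next set against the sum of the single log2 changes, a contrast in which a negative value means that siFem1b/Keap1 was lower than that sum. Id1, Id2, Id3 and Smad7 were called, all 4 lower than the sum, where 11.4% of all genes were called and 5.32% were called lower. The departure was log2 -0.61 ± 0.11 SE for Id1 (edgeR adjusted p = 0.00303), -0.51 ± 0.06 for Id2 (adjusted p = 7.35e-06), -0.43 ± 0.07 for Id3 (adjusted p = 0.000495) and -0.25 ± 0.07 for Smad7 (adjusted p = 0.0294). Id1 was 2.41-fold above siCont with siFem1b/Keap1, where the single changes add up to 3.67-fold, and Id3 was 2.19-fold above where they add up to 2.95-fold. The Smad7 call ended with an offset for transcript length (log2 -0.02, adjusted p = 0.963), with the first run alone (adjusted p = 0.105), and without siFem1b/Keap1 replicate 2 (log2 -0.22), siKeap1 replicates 1 or 3 (log2 -0.24 each), siFem1b replicate 1 (log2 -0.20) or siCont replicates 1 or 3 (log2 -0.23 each), at adjusted p of 0.0628 to 0.0902.

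The other 5 tested genes were not called for this departure. It was log2 -0.67 for Bmp4 (95% interval -1.13 to -0.21, edgeR adjusted p = 0.0558), and it passed without siFem1b/Keap1 replicate 1 (0.0131), siKeap1 replicate 3 (0.0371), siFem1b replicate 2 (0.0382) or siCont replicate 2 (0.0349). For Smad6 it was -0.36 (-0.62 to -0.11, adjusted p = 0.066), and it passed without siFem1b/Keap1 replicate 3 (0.0271), siKeap1 replicate 3 (0.029) or siFem1b replicate 2 (0.029). For Inhba it was -0.26 (-0.48 to -0.05, adjusted p = 0.11), and it passed without siFem1b replicate 3 (0.024) or siCont replicate 3 (0.0417). For Fst it was 0.27 (-0.01 to 0.54, adjusted p = 0.216), and for Id4 it was 0.26 (-1.45 to 1.97, adjusted p = 0.884). The median departure of the 8 genes without Id4 was -0.40, beside 0.02 over all genes.

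**Figure D3:**
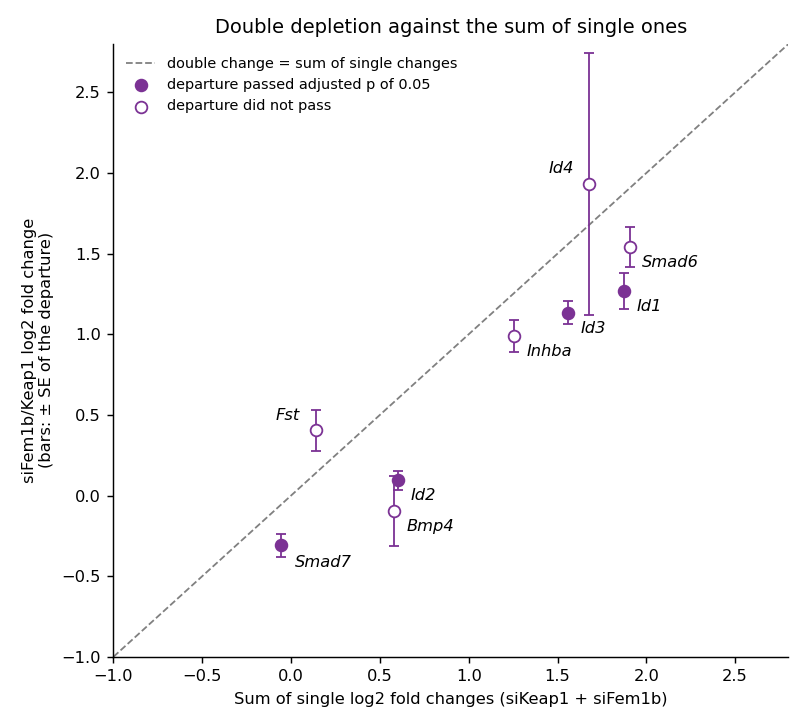
Log2 fold change against siCont with siFem1b/Keap1 (y axis, bars ± SE of the departure) against the sum of the log2 fold changes with siKeap1 and siFem1b (x axis) for the 9 tested genes; the dashed line marks equality. Id1, Id2, Id3 and Smad7 (filled) lie below the line by 0.61, 0.51, 0.43 and 0.25, and Fst and Id4 lie above it.

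Other genes of the pathway were counted in 6 lists. Of the 10 tested ligands beside Bmp4, Mstn and Inhba, 5 rose and 2 fell with siFem1b/Keap1, 3 rose and 3 fell with siKeap1, and 4 rose and 2 fell with siFem1b, with median log2 changes of 0.44, 0.01 and 0.17 (siFem1b/Keap1, siKeap1 and siFem1b). The count called, 7, 6 and 6 of 10 in these comparisons, stands beside 67.5%, 42.2% and 62.1% of all genes. Inhbb, which encodes the activin B subunit, went against Inhba under siKeap1: it fell with siKeap1 (log2 -0.96, edgeR adjusted p = 2.96e-08) and rose with siFem1b/Keap1 (log2 0.53, adjusted p = 5.12e-06) and with siFem1b (log2 0.80, adjusted p = 2.96e-08). Tgfb3 rose with siFem1b/Keap1 (log2 0.53) and siFem1b (log2 0.90) and fell with siKeap1 (log2 -0.40). Tgfb2 did the reverse, falling with siFem1b/Keap1 (log2 -0.40) and siFem1b (log2 -0.37) and rising with siKeap1 (log2 0.83). Gdf11, the closest relative of myostatin, fell with siFem1b/Keap1 (log2 -1.03), siKeap1 (log2 -0.27) and siFem1b (log2 -0.89). For the 24 genes named from the lists, SEs of log2 changes against siCont were between 0.034 and 0.113, except for Dcn and Myog (up to 0.352).

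Receptors and co-receptors were split with siFem1b/Keap1 and siKeap1, and more rose than fell with siFem1b. Of 16 tested, 5 rose and 5 fell with siFem1b/Keap1, 2 rose and 4 fell with siKeap1, and 7 rose and 1 fell with siFem1b (medians 0.03, -0.04 and 0.10), beside the same shares of all genes called (67.5%, 42.2% and 62.1%). Acvr2a, a type II receptor for activins, myostatin and BMPs, fell with siFem1b/Keap1 (log2 -1.22, edgeR adjusted p = 2.38e-10), siKeap1 (log2 -0.66) and siFem1b (log2 -0.79). The BMP co-receptor Rgmb rose with siFem1b/Keap1 (log2 0.92), siKeap1 (log2 0.16) and siFem1b (log2 0.72), and the related Rgma rose with siFem1b/Keap1 (log2 0.30) and siFem1b (log2 0.95) but fell with siKeap1 (log2 -0.64). Tgfbr2, the type II TGF-beta receptor, rose by log2 0.51, 0.13 and 0.33 with siFem1b/Keap1, siKeap1 and siFem1b.

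Of the 14 signalling SMADs and their turnover factors, 6 rose and 6 fell with siFem1b/Keap1, 3 rose and 4 fell with siKeap1, and 7 rose and 5 fell with siFem1b (medians -0.05, -0.09 and 0.09; 67.5%, 42.2% and 62.1% of all genes called). Smad5, a BMP effector, fell with siFem1b/Keap1 (log2 -0.49, edgeR adjusted p = 2.14e-07), siKeap1 (log2 -0.15) and siFem1b (log2 -0.30). Smurf1, a ubiquitin ligase for SMAD1 and SMAD5, fell with siFem1b/Keap1 (log2 -0.40), siKeap1 (log2 -0.26) and siFem1b (log2 -0.28), and so did the phosphatase gene Ppm1a (log2 -0.42, -0.18 and -0.17 with siFem1b/Keap1, siKeap1 and siFem1b). Larp7, the gene of a 7SK RNA-binding protein, fell with siFem1b/Keap1 (log2 -0.70) and siFem1b (log2 -0.48), with a value of -0.09 with siKeap1 that did not pass.

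Of the 15 tested antagonists and carriers beside Fst, 7 rose and 5 fell with siFem1b/Keap1, 7 rose and 3 fell with siKeap1, and 8 rose and 5 fell with siFem1b (medians 0.24, 0.24 and 0.22; 67.5%, 42.2% and 62.1% of all genes called). Decorin (Dcn), a proteoglycan that binds TGF-beta and myostatin, rose with siFem1b/Keap1 (log2 2.55 ± 0.16 SE, edgeR adjusted p = 1.96e-10), fell with siKeap1 (log2 -2.31 ± 0.30) and rose with siFem1b (log2 3.67 ± 0.15). Grem1, a BMP antagonist, fell with siFem1b/Keap1 (log2 -0.24) and siKeap1 (log2 -0.75) and rose with siFem1b (log2 0.22). Ltbp1, the latent TGF-beta binding protein gene, and Htra1, a secreted protease gene, each fell with siFem1b/Keap1 (log2 -0.37 for Ltbp1, -0.34 for Htra1), rose with siKeap1 (0.27 for Ltbp1, 0.43 for Htra1) and fell with siFem1b (-0.62 for Ltbp1, -0.70 for Htra1).

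SMAD target genes outside the ID family did not move as 1 group. Of 13 tested, 4 rose and 6 fell with siFem1b/Keap1, 7 rose and 1 fell with siKeap1, and 4 rose and 6 fell with siFem1b (medians 0.02, 0.25 and 0.04). Over all genes, 33.8% rose and 33.7% fell with siFem1b/Keap1, 18.4% rose and 23.8% fell with siKeap1, and 30.0% rose and 32.1% fell with siFem1b. Atoh8, a target of BMP signalling, rose with siFem1b/Keap1 (log2 1.41, edgeR adjusted p = 3.76e-12) and siFem1b (log2 1.18), with a siKeap1 value of 0.07 that did not pass. Hey1, a bHLH repressor gene, rose with siFem1b/Keap1 (log2 1.60) and siFem1b (log2 2.02) and fell with siKeap1 (log2 -0.67). Ccn2, a TGF-beta target, fell with siFem1b/Keap1 (log2 -0.92), rose with siKeap1 (log2 1.16) and fell with siFem1b (log2 -1.88). Smad7 had the signs of Ccn2 in the 3 comparisons with siCont, and Smad6 those of Id1 and Id3.

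Of the 10 tested bHLH partners of ID proteins and their competitors, 8 rose and 2 fell with siFem1b/Keap1, 1 rose and 5 fell with siKeap1, and 8 rose and 1 fell with siFem1b (medians 0.57, -0.13 and 0.58). The shares of all genes that rose were 33.8%, 18.4% and 30.0% in these comparisons, and 33.7%, 23.8% and 32.1% fell. Myog, the myogenic factor of early differentiation, averaged 4.97, 0.0367, 59.3 and 1.57 CPM in siFem1b/Keap1, siKeap1, siFem1b and siCont libraries, and it rose with siFem1b/Keap1 (log2 1.68 ± 0.13 SE, edgeR adjusted p = 6.54e-10), fell with siKeap1 (log2 -5.27 ± 0.35) and rose with siFem1b (log2 5.26 ± 0.10). Myf5 rose with siFem1b/Keap1 (log2 1.13) and siFem1b (log2 1.16) and fell with siKeap1 (log2 -0.17). Mef2c, a MADS-box partner of the myogenic factors, rose with siFem1b/Keap1 (log2 1.05) and siFem1b (log2 1.37), and its siKeap1 value of -0.08 did not pass. The E protein gene Tcf4 rose with siFem1b/Keap1 (log2 0.48) and siFem1b (log2 0.66), and its siKeap1 value of -0.03 did not pass. In the siFem1b libraries, Id1, Id2 and Id3 and the myogenic genes were therefore higher at the same time. Myog is also among the differentiated muscle markers and Myf5 among the myoblast markers, so these lists are not separate evidence.

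**Figure D4:**
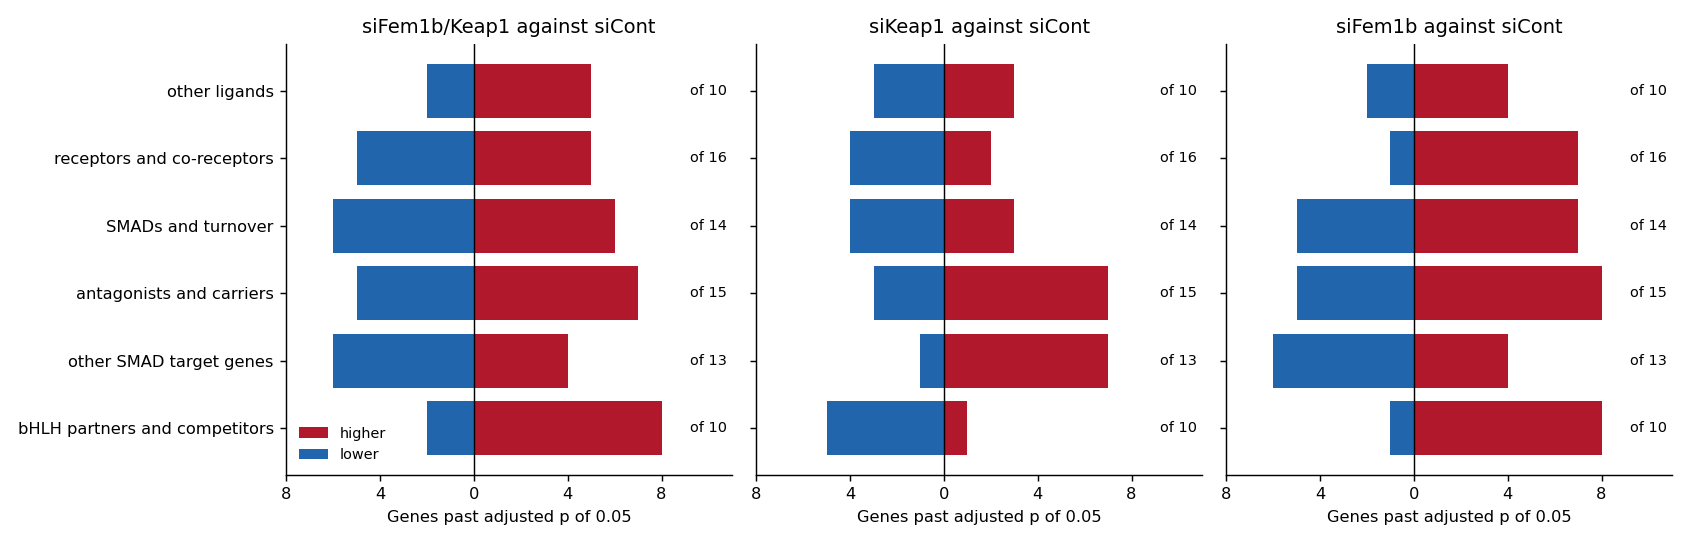
Genes past an adjusted p of 0.05 (x axis, higher to the right in red and lower to the left in blue) in 6 lists of pathway genes (y axis) with siFem1b/Keap1, siKeap1 and siFem1b, each against siCont; the tested number stands at the right. The bHLH list has 8 higher with siFem1b/Keap1 and siFem1b and 1 with siKeap1, and the SMAD target list has 7 higher with siKeap1.

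The genes with the most similar patterns were found among 9916 genes by the root mean square difference in the log2 changes against siCont in the 3 groups, as a description without a test. For Id1 they were Cdkn1a (0.083), Rap1gap2 (0.0966) and Hid1 (0.105). For Id3 they were Tspan7 (0.0499), Sntb1 (0.0549) and Lynx1 (0.0562), and for Smad6 Adam8 (0.0627), Tcp11l2 (0.0824) and Lgals9 (0.0902). For Id4 they were Tm7sf2 (0.0923), Cdkl2 (0.1) and Renbp (0.106). These Id4 distances are far below the SEs of its log2 changes, 0.53, 0.65 and 0.56 with siFem1b/Keap1, siKeap1 and siFem1b. The genes nearest to Id4 are therefore poorly determined. Among the pathway members themselves, Id1 was closest to Smad6 (0.161) and Id3 (0.174), and farther from Id2 (0.855). The nearest genes to Inhba were Ly6e (0.0213), Ly6a (0.0215) and Dnm3 (0.0573), with log2 changes of 1.01, 0.94 and 0.30 for Ly6e with siFem1b/Keap1, siKeap1 and siFem1b. No gene was that close to Bmp4, whose nearest were Socs2 (0.247), Ccdc8 (0.248) and Dlc1 (0.254). For Inhba the distances were below the SEs of its log2 changes (0.07 each). For Id3, Smad6 and Id1 they were near those SEs (0.05, 0.09 and 0.08). Which genes lie nearest to these members is therefore also uncertain.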

How the data were processed

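Poly(A)-selected RNA (per the labels) of 12 C2C12 libraries was quantified by the authors with kallisto 0.44.0, with build mm10, per the submitters' processing notes; strand and further settings are not given in the sources used here. The 24 deposited files, 1 for each of 2 runs of a library, give estimated counts, TPM and transcript lengths as deposited. Of 118489 transcripts, 98.51% matched GENCODE M21 by ID; the rest, 0.606% to 0.64% of counts, were left out. Estimated counts were summed per gene and over both runs and rounded. edgeR 4.0.16 (R 4.3.3) fitted all 12 libraries with 1 term per group, TMM scaling, filterByExpr and robust quasi-likelihood tests (2-sided). SE is the absolute log2 change over the root of F. The fit recovered known changes in simulated counts when checked. Alternatives used DESeq2 1.42.0 and limma 3.58.1 among others.

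The 10 genes and all lists were chosen with earlier results of these data known. Named list genes are, per list, the 4 with the smallest p in any comparison with siCont; similar genes are the 3 nearest, for genes called at 1.5-fold or more, with a mean of at least 5 CPM. One gene that the rule names is not reported here. Runs of a library were joined because each of the 12 second runs was most like its own first run over 8634 genes. Intervals are at 95%, from the t quantile at edgeR's total degrees of freedom.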

Additional observations from a re-analysis of the deposited data

Results flagged for a closer look

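In 4 genes the change with one siRNA differed by the presence of the other, tested as the departure of siFem1b/Keap1 from the sum of the single log2 changes (edgeR's quasi-likelihood test, Benjamini-Hochberg adjusted p under 0.05). The departure was -0.6086 for Id1, -0.5087 for Id2, -0.4274 for Id3 and -0.2489 for Smad7, each negative. The Smad7 departure is the least secure: it was log2 -0.02 with an offset for transcript length (adjusted p = 0.963) and was not called with the first run alone or without each of 6 libraries in turn. The fitted siFem1b change of Id2 was log2 0.58 without the Keap1 siRNA (siFem1b against siCont) and 0.07 with it (siFem1b/Keap1 against siKeap1). For Id1 these were 1.15 and 0.54, for Id3 1.10 and 0.68, and for Smad7 -0.38 and -0.62. The causes were not tested.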

How the results depend on the processing

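Of the 45 calls on the 9 tested genes, 36 held under all 12 settings and all 12 omissions of a library that could be fitted. The 45 calls and the 63 values below include Id4, and its call with siFem1b/Keap1 against siCont is among the 36. Id4 reached the read minimum only through its high groups, so its part in these tallies is description only. The other 9 concern Bmp4, Fst, Id2, Id4 and Smad7, and the text above gives only part of the settings in which they ended. The Id4 call with siFem1b against siCont also ended with DESeq2's Wald test (adjusted p = 0.0625), limma-voom (0.0955) and an offset for transcript length (edgeR, 0.0671). The Id2 call with siFem1b/Keap1 against siCont also ended without a filter (edgeR adjusted p = 0.16), with the second run alone (0.149) and with the compared groups only (0.0594). Over 63 values, 688 of 723 refitted under other settings kept direction and side of the threshold, 21 lost a call, 10 gained one and 4 turned sign. Leaving out 1 library gave 704 of 756, 27, 10 and 15. The 4 sign changes were Bmp4 with siFem1b/Keap1 against siCont (0.0284) and Fst with siFem1b against siKeap1 (0.0201), both with library totals alone, and Inhba with siFem1b/Keap1 against siKeap1 (-0.019 with a transcript length offset, -0.0287 with the second run alone). Sign changes on leaving out a library touched uncalled values: Inhba siFem1b/Keap1 against siKeap1 (-0.0129 to 0.0639), Bmp4 siFem1b/Keap1 against siCont (-0.2784 to 0.0113), Id3 siFem1b/Keap1 against siFem1b (-0.0202 to 0.0623), Id4 siKeap1 against siCont (-0.213 to 0.7387), Fst siFem1b against siKeap1 (-0.1504 to 0.0077), Id4 departure (-0.1569 to 0.7954), Fst siFem1b against siCont (-0.0295 to 0.0957). The members called for the departure from additivity numbered 7 without a filter, where 1841 of all genes were called. With the filter, 4 members and 1667 of all genes were called. The members called for siFem1b/Keap1 against siKeap1 numbered 4 with the first run alone, against 6 in the main comparison, both without Id4. Bmp4 and Fst lost their calls there (edgeR adjusted p = 0.054 and 0.139). All genes called for siFem1b/Keap1 against siKeap1 numbered 7556 with the first run alone and 9267 in the main comparison. All genes called for the departure numbered 852 with a length offset, 929 with the first run alone and 880 at an adjusted p under 0.01, against 1667. Library totals alone moved the median log2 change of all genes with siFem1b/Keap1 against siCont to 0.13, and kept the direction of all calls. The cause of these shifts was not tested.

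Replicate numbers showed no clear pairing of the libraries. Over 18 pairs, same-numbered residual correlations were -0.078 to 0.117 (median -0.0205, 1 over 0.1). Of 12 libraries, 3 were closest to their own number. With 3 libraries a group, these values cannot exclude a pairing. A replicate block moved 2 calls: Id2 with siFem1b/Keap1 against siCont (log2 0.0939, edgeR adjusted p = 0.0719) and Id4 with siFem1b against siCont (log2 1.3439, adjusted p = 0.0623). Low counts limit Id4 and Mstn.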
